A study of Mus musculus with 6 samples.

Results

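Haem synthesis and the reduction of biliverdin were followed through 9 genes in mouse liver. The genes were taken by name: Alas1, Alad, Uros, Urod, Cpox, Ppox and Fech, which encode 7 enzymes of haem synthesis, and Blvra and Blvrb, which encode 2 biliverdin reductases. Not every step of haem synthesis is among the 9 genes, so values over the 7 do not describe the whole pathway. All 9 were found among the 54532 genes of the deposited table, each once. RNA came from whole liver of hepatocyte-specific G3bp1-knockout mice (HKO, 3 libraries) and of G3bp1-Flox litter controls (Flox, 3 libraries). Both groups started a high-fat diet (HFD) at 6 weeks of age and stayed on it for 12 weeks, so the diet was shared. The question of the study is the role of G3BP1, an RNA-binding protein of stress granules, in steatohepatitis, a fatty liver with inflammation. The sources used here give neither the Cre driver, nor the deleted exons, nor the sex of the mice. Cells other than hepatocytes keep G3bp1 in this model, and since no label says that each library is a separate animal, the spread behind each p-value may be technical. Where libraries are called livers below, the word names the tissue and does not mean separate animals.

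Haem is built in steps that begin and end in the mitochondrion and pass through the cytosol between them. ALAS1 makes the first precursor and sets the pace of the pathway in hepatocytes, where most of the haem goes into cytochromes P450. Haem represses ALAS1, and fasting and the circadian clock change its transcript. Haem oxygenase opens the haem ring to biliverdin, and the reductases turn biliverdin and other substrates into their reduced forms.

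Recovered read sums ran from 15804115 to 17954066 per library. FPKM (reads scaled by gene length and by library size) were compared as log2(FPKM + 1). G3bp1 stood at 4.66, 4.27 and 4.44 FPKM in HKO 1 to 3 and at 8.46, 8.46 and 9.10 FPKM in Flox 1 to 3, so each library matched its label. In limma the G3bp1 difference was -0.83 on the log2 scale (SE 0.088) with an adjusted p of 0.11. The hepatocyte marker Alb averaged 29613 ± 4225 FPKM in HKO and 29563 ± 1203 FPKM in Flox (SD, n = 3 each). Of 9 hepatocyte markers tested, 6 had a lower and 3 a higher mean in HKO (4 and 5 under TPM). Their median log2 fold change was -0.15, and 0 passed an adjusted p under 0.05 in limma. In 2 of the 9, Apoa1 and Ttr, every HKO library lay below every Flox library, against 7.21% of all genes tested. On the first principal component, which held 33.6% of the variance, HKO 1, HKO 2 and HKO 3 lay at -3.96, 13.8 and 14.5, and Flox 1, Flox 2 and Flox 3 at -14.9, -23.5 and 14.1. Flox 3 thus lay among the HKO livers on that axis.

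Promoter sequence is shown for the steps on which the results turn: Alas1, whose transcript varied most between livers, and Alad, Urod and Cpox, as examples of the 6 genes that were highest in Flox 2 and next in Flox 1 (the others being Uros, Blvra and Blvrb). The stretches are the 250 bases before a RefSeq start, on GRCm38.p6 and 5′ to 3′ along the gene, at chr4:62520064-62520313 (minus strand) for Alad, chr4:116994414-116994663 (minus strand) for Urod and chr16:58669958-58670207 (plus strand) for Cpox. For Alas1 only 30 bases are shown, chr9:106247906-106247935 (minus strand), because both of its RefSeq windows lie largely in exons of other annotated Alas1 transcripts. Capitals mark CACGTG (the E-box, the letters that clock proteins of the BMAL1 family read), GCGCA followed directly by its reverse complement TGCGC (the core read by the nuclear respiratory factor NRF1) and CCAAT or its complement ATTGG.
Alas1: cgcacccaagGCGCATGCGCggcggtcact
Alad: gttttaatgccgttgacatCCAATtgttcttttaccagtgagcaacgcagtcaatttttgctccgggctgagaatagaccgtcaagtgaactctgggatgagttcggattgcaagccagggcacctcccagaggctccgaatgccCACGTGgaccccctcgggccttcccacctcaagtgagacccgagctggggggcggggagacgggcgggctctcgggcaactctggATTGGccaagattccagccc
Urod: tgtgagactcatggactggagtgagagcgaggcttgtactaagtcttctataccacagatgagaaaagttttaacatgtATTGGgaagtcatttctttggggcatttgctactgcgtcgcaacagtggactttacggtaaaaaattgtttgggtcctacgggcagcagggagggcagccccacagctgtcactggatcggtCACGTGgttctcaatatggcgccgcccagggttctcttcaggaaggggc
Cpox: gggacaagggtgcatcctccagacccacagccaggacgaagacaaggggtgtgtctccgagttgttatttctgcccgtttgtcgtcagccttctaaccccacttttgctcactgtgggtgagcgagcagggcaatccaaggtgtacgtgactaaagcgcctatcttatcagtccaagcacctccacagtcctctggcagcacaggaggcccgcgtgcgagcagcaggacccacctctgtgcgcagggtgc

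Both strands of 32851 windows were searched in the same way, among them 12 windows of 8 of the genes, since Alas1, Alad, Uros and Blvrb have more than 1 start. Fech was left out of the member windows, so the counts out of 12 do not cover it. CACGTG was held by 6.02% of all windows and by 4 of the 12, which belong to Alad, Urod and Uros. The NRF1 core was held by 0.782% of all windows and by 1 of the 12, from Alas1, where it began 195 bases before the downstream RefSeq start. CCAAT was held by 33.9% of windows and by 5 of the 12, from Alad, Urod, Ppox and Blvra. The GC box GGGCGG was in 32.7% of windows and in 6 of the 12, from Alas1, Alad, Urod, Uros and Blvrb. AGGTCA, letters within the site of the clock receptor REV-ERB, was in 14.02% of windows and TATAAA in 12.4%, and each was in 0 of the 12. A match is a description of letters and shows no binding.

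The 9 transcripts spanned a wide range of levels, and the top and the bottom of the order of means were shared by both genotypes. FPKM are per length, so levels can be set side by side. By mean, Alad was the most abundant, followed by Fech, and the HKO libraries of these genes did not overlap each other, nor did the Flox libraries. In HKO 3, however, Alas1 at 81.4 FPKM lay above Alad at 80.4 FPKM and Fech at 60.1 FPKM. In HKO the order went on with Alas1, Blvrb, Cpox and Urod, whose neighbours overlapped in their libraries. Flox had Blvrb, Urod, Cpox and Alas1 in that stretch, again with overlap between neighbours. Blvra and Uros lay close together below them, and Ppox was lowest in both groups. The deposited gene length of Fech was 2901 bases, against 13838 bases in the exons of GENCODE M21, so its level relative to other genes depends on the gene model. For the other 8 genes the length equalled the M21 exons.

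**Figure D1:**
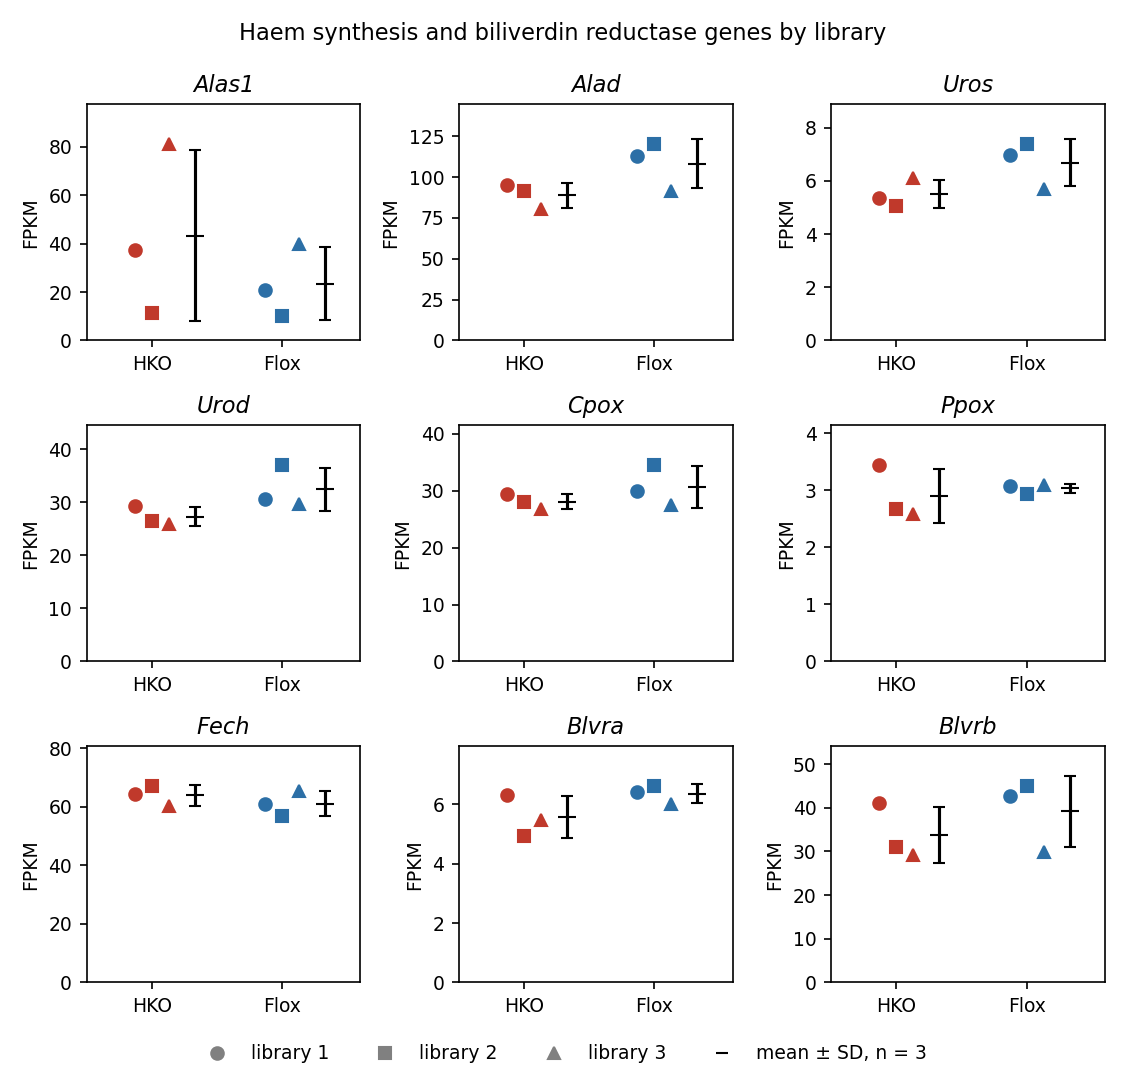
FPKM (y axis, from 0, a separate scale for each gene) of the 9 genes in the HKO livers (red) and the Flox livers (blue). Symbols mark the library number and black bars the mean ± SD of 3 libraries. Alas1 ranged from 10.02 to 81.4 FPKM, while Fech stayed between 56.8 and 67.2 FPKM.

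Alas1 (ENSMUSG00000032786, chromosome 9, 106233455 to 106248654, minus strand, GRCm38), the rate-limiting aminolevulinate synthase, varied widely within each genotype. It stood at 37.4, 11.4 and 81.4 FPKM in HKO 1, HKO 2 and HKO 3, and at 20.9, 10.02 and 39.7 FPKM in Flox 1, Flox 2 and Flox 3. HKO 3 was highest and Flox 2 lowest, and the groups overlapped almost wholly. The highest library was 7.13 times the lowest in HKO and 3.96 times the lowest in Flox. Group means were 43.4 ± 35.4 FPKM in HKO and 23.5 ± 15.0 FPKM in Flox (SD, n = 3 each). The log2 fold change was 0.67 (SE 0.76, 95% interval -1.15 to 2.48) and its adjusted p from limma was 0.801. An exact two-sided permutation test gave p = 0.5. Without HKO 3 the log2 fold change was 0.028, without Flox 2 it was 0.19, without HKO 2 it was 1.39 and without Flox 3 it was 1.13. Its SD within groups on the log2 scale was 1.18, larger than that of 99.7% of the genes tested. Between 919 and 9314 reads lay behind each value, so counting error is small beside this spread. Exons of the antisense gene 4930500F10Rik cover 7.53% of those of Alas1 and, since the library kit does not mark strand, such reads cannot be told apart.

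The next step had a lower mean in HKO that did not pass. Alad (ENSMUSG00000028393, chromosome 4, 62509169 to 62519918, minus strand) encodes the cytosolic dehydratase that joins aminolevulinate into porphobilinogen. It stood at 94.9, 91.6 and 80.4 FPKM in HKO 1 to 3 and at 113, 120 and 91.2 FPKM in Flox 1 to 3. Flox 1 and Flox 2 lay above every HKO liver and Flox 3 lay within the HKO range. The means were 88.9 ± 7.60 FPKM in HKO and 108 ± 15.2 FPKM in Flox (SD, n = 3 each), with a log2 fold change of -0.27 (SE 0.14, 95% interval -0.61 to 0.064, adjusted p = 0.684 in limma).

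Uros (ENSMUSG00000030979, chromosome 7, 133686243 to 133710072, minus strand), the synthase that closes the porphyrin ring, stood at 5.36, 5.06 and 6.09 FPKM in HKO and at 6.97, 7.40 and 5.69 FPKM in Flox. The groups overlapped through HKO 3 and Flox 3. Its means were 5.50 ± 0.532 FPKM in HKO and 6.69 ± 0.889 FPKM in Flox (SD, n = 3 each), with a log2 fold change of -0.24 (SE 0.12, adjusted p = 0.678 in limma). Urod (ENSMUSG00000028684, chromosome 4, 116989965 to 116994413, minus strand) encodes the cytosolic decarboxylase that trims the side chains of the ring. It was the gene of the 9 whose groups did not overlap, at 29.2, 26.5 and 25.9 FPKM in HKO and 30.5, 37.1 and 29.6 FPKM in Flox, although HKO 1 and Flox 3 lay close together. Its means were 27.2 ± 1.77 FPKM in HKO and 32.4 ± 4.07 FPKM in Flox (SD, n = 3 each), with a log2 fold change of -0.24 (SE 0.12, 95% interval -0.52 to 0.048, adjusted p = 0.678 in limma). The exact permutation p of Urod was 0.1, the smallest that 3 against 3 libraries allow. Over all genes tested, 7.21% had every HKO library below every Flox library, so 1 of 9 is near the background.

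Cpox (ENSMUSG00000022742, chromosome 16, 58670292 to 58717636, plus strand), the coproporphyrinogen oxidase of the mitochondrial intermembrane space, stood at 29.4, 28.0 and 26.8 FPKM in HKO and at 29.9, 34.6 and 27.4 FPKM in Flox. Flox 2 was high and the other 5 livers lay close together. Its log2 fold change was -0.12 (SE 0.12, adjusted p = 0.772 in limma), and it was 0.056 under TPM, where the median of all genes was shifted by 0.15. Exons of Gpr15 on the other strand cover 3.06% of its exons. Ppox (ENSMUSG00000062729, chromosome 1, 171275990 to 171281186, minus strand), the protoporphyrinogen oxidase, was the least abundant. It stood at 3.45, 2.67 and 2.58 FPKM in HKO and at 3.07, 2.94 and 3.08 FPKM in Flox, with the Flox livers inside the HKO range. Its log2 fold change was -0.055 (SE 0.11, adjusted p = 0.89 in limma), and it turned positive under TPM, when scaled by assigned reads and without HKO 3. Exons of B4galt3 on the other strand cover 17.5% of those of Ppox, so its 197 to 276 reads per library are uncertain.

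Fech (ENSMUSG00000024588, chromosome 18, 64456550 to 64489066, minus strand) encodes ferrochelatase, which puts iron into the finished ring. It was the steadiest of the 9 genes, at 64.3, 67.2 and 60.1 FPKM in HKO and 61.0, 56.8 and 65.2 FPKM in Flox, and the groups overlapped. The log2 fold change was 0.066 (SE 0.11, 95% interval -0.19 to 0.32, adjusted p = 0.867 in limma). The highest library was 1.18 times the lowest.

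The biliverdin reductases had lower means in HKO that did not pass. Blvra (ENSMUSG00000001999, chromosome 2, 127070665 to 127097084, plus strand), which makes bilirubin, stood at 6.32, 4.92 and 5.49 FPKM in HKO and at 6.44, 6.63 and 6.03 FPKM in Flox. HKO 1 lay within the Flox range and HKO 2 and HKO 3 below it. Its means were 5.58 ± 0.700 FPKM in HKO and 6.37 ± 0.307 FPKM in Flox (SD, n = 3 each), with a log2 fold change of -0.17 (SE 0.11, adjusted p = 0.701 in limma). Blvrb (ENSMUSG00000040466, chromosome 7, 27447978 to 27466144, plus strand) encodes a reductase that acts on flavins and on other biliverdin isomers. It stood at 41.2, 31.1 and 29.2 FPKM in HKO and at 42.6, 45.0 and 29.9 FPKM in Flox. HKO 1 lay with Flox 1 and Flox 2, and Flox 3 with HKO 2 and HKO 3. Its log2 fold change was -0.20 (SE 0.20, adjusted p = 0.768 in limma), and it was -0.093 without Flox 2, -0.11 without HKO 3, -0.35 without HKO 1 and -0.38 without Flox 3.

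None of the 9 genes passed an adjusted p under 0.05 in limma in either direction (0 of 9 higher, 0 of 9 lower). The background was 0.00% higher and 0.00843% lower among 11856 genes tested, that is 0 and 1 genes. At an unadjusted p under 0.05 there were also 0 of 9, against 7.62% of all genes, and limma voom on recovered reads passed 0 of 9. Urod was the 1 of 9 with every HKO library below every Flox library, and 0 of 9 had every HKO library above, against 6.06% of all genes. All 9 genes were above the filter on low values. A lower mean in HKO was seen for 7 of 9, against 51.2% of all genes, but for 5 of 9 under TPM and 6 of 9 when scaled by assigned reads. Relative to the median of all genes it was 7 of 9 under both. Each of these scalings multiplies a library by 1 constant and so shifts all genes nearly alike. The count relative to the median is therefore close to fixed in advance and is no separate evidence. The median log2 fold change was -0.17 over the 9 genes and -0.12 over the 7 of haem synthesis, beside -0.0054 over all genes tested.

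**Figure D2:**
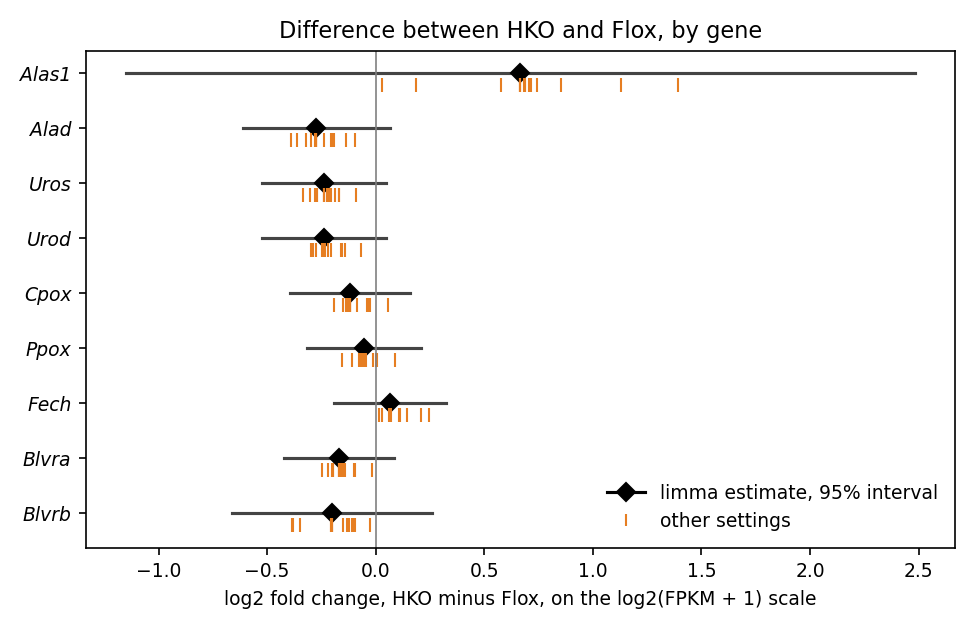
Difference of HKO and Flox means in log2(FPKM + 1), positive where HKO is higher (x axis), for each gene (y axis). Diamonds and lines are the limma estimate with its 95% interval, and orange ticks are the values under other settings; every interval includes 0, and that of Alas1 runs from -1.15 to 2.48.

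Several of the genes ranked the livers alike. Alad, Cpox and Blvrb, 3 of the 9, shared 1 order of the 6 libraries from high to low, which was Flox 2, Flox 1, HKO 1, HKO 2, Flox 3 and HKO 3. That is also their order on the first principal component from -23.5 to 14.5, and 0.641% of the 11856 genes tested had it, among them Cyp8b1 of bile acid synthesis. Flox 2 was the highest library for 6 of the 9 genes, against 23.7% of all genes tested, and the lowest for Alas1 and Fech. In the same 6 genes Flox 1 came next, against 10.4% of all genes. These orders were noticed after the values were seen and are given without a test. By the rule for naming like patterns, the 3 of 10208 protein-coding genes most like Blvrb over the 6 libraries were Rbx1 (r = 0.997), Cox5b (r = 0.994) and Ssbp1 (r = 0.994), which encode a ubiquitin ligase subunit, a cytochrome oxidase subunit and a mitochondrial DNA-binding protein. These are the highest of many correlations over 6 libraries that share 1 scaling, and are given as a description.

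Ratios of FPKM within a library are free of the scaling between libraries. Alas1 over Alad was 0.394, 0.125 and 1.01 in HKO 1 to 3 and 0.185, 0.0832 and 0.435 in Flox 1 to 3. The transcript of the first enzyme was thus level with that of the second in HKO 3 and far below it in Flox 2. Cpox over Urod was 1.004, 1.06 and 1.03 in HKO and 0.981, 0.933 and 0.926 in Flox. It was the 1 of 9 ratios formed whose groups did not overlap, it was noticed after the values were seen, and it is given without a test. No background share over gene pairs was formed. Any 3 against 3 libraries without overlap have an exact two-sided permutation p of 0.1, so 1 of 9 is not read as a result. Blvrb over Blvra was 6.05 ± 0.642 in HKO and 6.12 ± 1.01 in Flox (SD, n = 3 each). Fech over Alad was 0.719 ± 0.0372 in HKO and 0.575 ± 0.126 in Flox (SD, n = 3 each), with Flox 3 at 0.715 inside the HKO range.

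**Figure D3:**
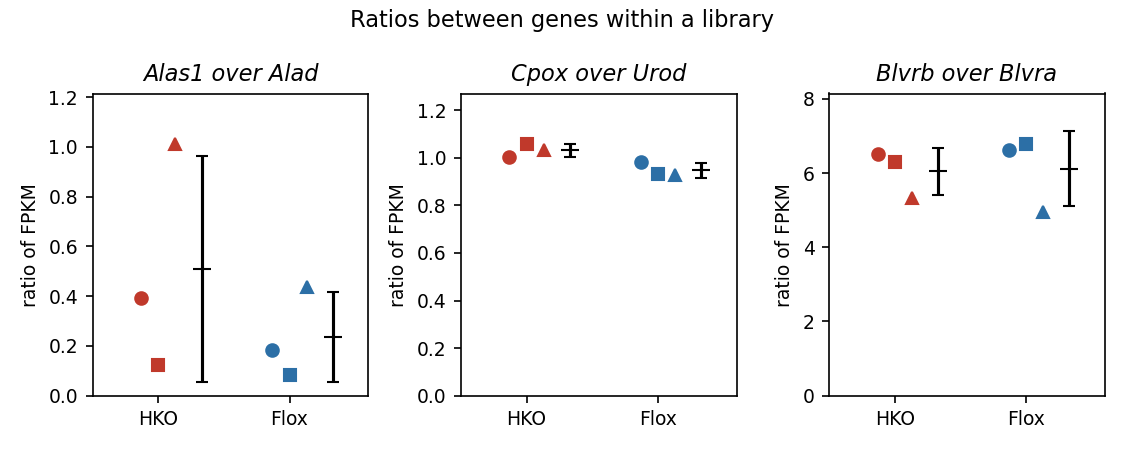
Ratio of FPKM between genes of the same library (y axis, from 0) in the HKO livers (red) and the Flox livers (blue). Circles, squares and triangles are libraries 1, 2 and 3 and black bars the mean ± SD. Alas1 over Alad ran from 0.0832 to 1.01, and Cpox over Urod from 0.926 to 1.06.

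Alas1 was highest in HKO 3, Flox 3 and HKO 1, and Cyp7a1 and 4 of 14 clock genes had the same 3 livers highest. The 3 genes most like it over the 6 libraries were Blzf1 (r = 0.970), which encodes a Golgi protein, Cyp7a1 (r = 0.966), the rate-limiting enzyme of bile acid synthesis, and Coro7 (r = 0.965), which encodes a coronin. Cyp7a1 stood at 20.6, 5.51 and 29.9 FPKM in HKO and at 6.58, 3.15 and 14.6 FPKM in Flox, and limma gave it a log2 fold change of 1.05 (SE 0.69) at an adjusted p of 0.708. Like Alas1 it was high in HKO 3, HKO 1 and Flox 3 and low in HKO 2 and Flox 2. The labels give no hour of sampling or time of last feeding.

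The clock genes named next were chosen after their values were seen, from the 14 clock genes plotted in full. Those with the same 3 livers highest were Ciart, Per1, Per2 and Tef, against 4.82% of all genes tested, and Arntl, Npas2 and Cry1 had these 3 livers lowest, against 5.66%. Npas2, on 7 to 37 reads, lay below the filter and is not among the genes tested, so that share does not cover it. The other 7 clock genes did neither. Ciart, a repressor of the clock, stood at 0.723, 0.212 and 0.930 FPKM in HKO and at 0.317, 0.208 and 0.895 FPKM in Flox. Its values rest on 7 to 39 reads, and on 8 reads in HKO 2 and 7 in Flox 2, so the order of those livers is within counting error. The period gene Per1 stood at 2.87, 0.777 and 2.31 FPKM in HKO and at 1.66, 0.706 and 2.39 FPKM in Flox. Cry1, which peaks at another phase than the period genes, ran the other way. It stood at 2.18, 5.72 and 2.62 FPKM in HKO and at 4.05, 5.52 and 2.87 FPKM in Flox. Among the clock genes that did neither, Nr1d1, which encodes the repressor REV-ERB alpha, stood at 29.9 ± 2.19 FPKM in HKO and 31.9 ± 6.82 FPKM in Flox (SD, n = 3 each). The part of the clock or of feeding in the spread of Alas1 was not tested.

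**Figure D4:**
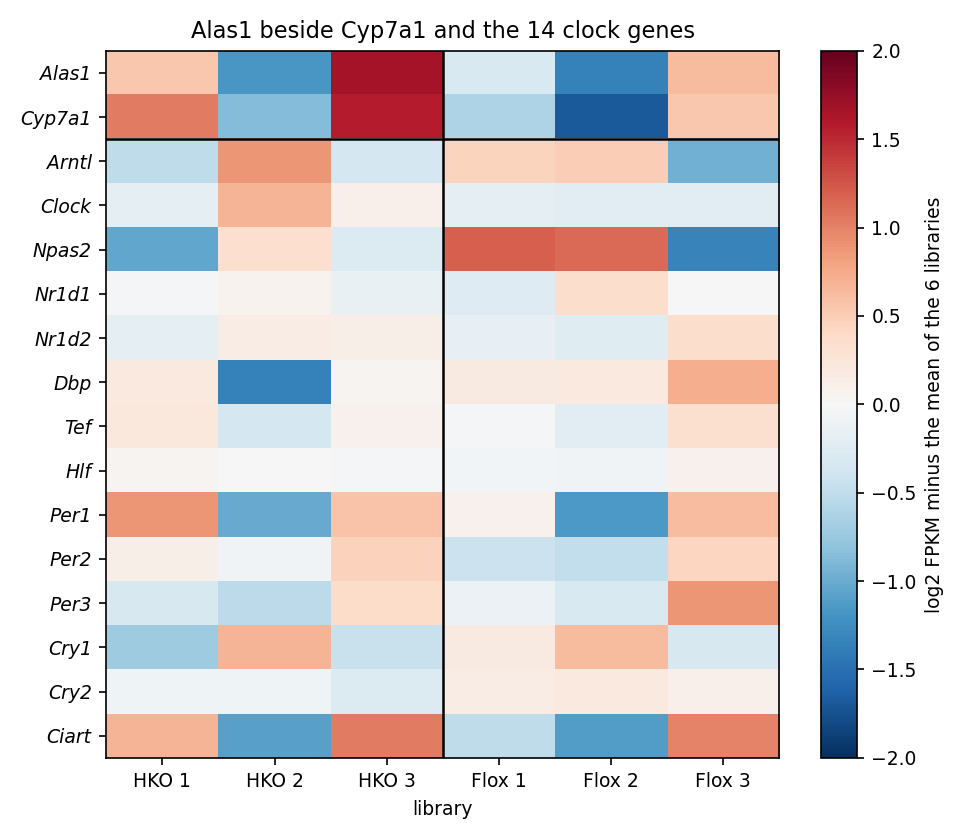
Colour gives log2 FPKM minus the mean of the 6 libraries for Alas1, Cyp7a1 and the 14 clock genes (rows) in each library (columns, HKO livers left of the line, Flox livers right of it). Alas1, Cyp7a1, Per1 and Ciart are red in HKO 1, HKO 3 and Flox 3 and blue in HKO 2 and Flox 2, on both sides of the line.

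Of 13 clock genes tested, 7 had a higher and 6 a lower mean in HKO (9 and 4 under TPM), 0 passed, and the median log2 fold change was 0.0038. The smallest unadjusted p was that of Cry2, a clock repressor, at 4.51, 4.50 and 3.93 FPKM in HKO and 5.25, 5.46 and 5.09 FPKM in Flox, without overlap between the groups (limma log2 fold change -0.24 with adjusted p = 0.648). Cry2 was the 1 of 13 with every HKO library below every Flox library, against 7.21% of all genes tested. Dbp, a clock output factor, stood at 17.4 ± 8.25 FPKM in HKO and 26.4 ± 5.96 FPKM in Flox (SD, n = 3 each). Among 11 regulators of Alas1, 6 had a higher and 5 a lower mean in HKO (8 and 3 under TPM) and 0 passed. Foxo1, a fasting regulator, stood at 3.81 ± 0.697 FPKM in HKO and 2.99 ± 0.366 FPKM in Flox, and Ppargc1a, chosen after its values were seen and encoding a coactivator of fasting, at 1.46 ± 0.342 FPKM in HKO and 1.22 ± 0.346 FPKM in Flox (SD, n = 3 each). Hnf4a, a master factor of hepatocytes, stood at 124 ± 8.61 FPKM in HKO and 109 ± 5.16 FPKM in Flox, without overlap (limma log2 fold change 0.18 with adjusted p = 0.697). Hnf4a was the 1 of 11 regulators with every HKO library above every Flox library, against 6.06% of all genes tested. Nr1i2, which encodes the xenobiotic receptor PXR, stood at 20.7 ± 2.66 FPKM in HKO and 24.1 ± 2.76 FPKM in Flox (SD, n = 3 each), with a limma log2 fold change of -0.21 and adjusted p = 0.697. Nrf1 stood at 1.03 ± 0.240 FPKM in HKO and 0.835 ± 0.161 FPKM in Flox (SD, n = 3 each).

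The genes around the pathway did not pass either. Of the haem oxygenase genes, which supply the substrate of the reductases, Hmox2 was close to level between the groups. Hmox1 varied more within groups, and the 95% interval of its log2 fold change ran from -0.59 to 0.95. Hmox1, the inducible form, stood at 17.2, 8.18 and 10.9 FPKM in HKO and at 6.80, 10.4 and 14.5 FPKM in Flox (limma log2 fold change 0.18 with adjusted p = 0.88). Hmox2, the constitutive form, stood at 12.3 ± 0.752 FPKM in HKO and 12.1 ± 1.06 FPKM in Flox (SD, n = 3 each). Of 20 genes for haem and porphyrin carriers and for the supply of iron, 14 had a lower and 6 a higher mean in HKO, the reverse under TPM (6 and 14), with a median log2 fold change of -0.050 and 0 passed. Hebp1, a haem-binding protein, stood at 56.7, 43.4 and 49.0 FPKM in HKO and 66.7, 71.7 and 55.6 FPKM in Flox (limma log2 fold change -0.37 with adjusted p = 0.648). Clpx, a mitochondrial unfoldase that acts on ALAS enzymes and was picked with its values known, stood at 46.5 ± 5.94 FPKM in HKO and 60.1 ± 18.4 FPKM in Flox (SD, n = 3 each).

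Downstream, 0 of 7 genes listed for the handling of bilirubin passed (4 higher, 3 lower). They were Ugt1a1, the carriers Abcc2, Abcc3, Slco1b2 and Slco1a1, and the glutathione transferases Gsta1 and Gstm1. Ugt1a1, which conjugates bilirubin, stood at 39.6, 38.2 and 36.5 FPKM in HKO and at 29.7, 28.1 and 40.9 FPKM in Flox, with Flox 3 above every HKO liver (limma log2 fold change 0.22 with adjusted p = 0.714). Gstm1, a glutathione transferase, stood at 525 ± 43.6 FPKM in HKO and 708 ± 96.1 FPKM in Flox (SD, n = 3 each) without overlap (limma log2 fold change -0.42 with adjusted p = 0.648). Gstm1 was the 1 of 7 with every HKO library below every Flox library, against 7.21% of all genes tested. Of 17 enzymes that carry haem or sit in haem complexes, 13 had a lower and 4 a higher mean in HKO (8 and 9 under TPM), with a median log2 fold change of -0.14 and 0 passed. Among them Cat, catalase, stood at 1182 ± 102 FPKM in HKO and 1464 ± 108 FPKM in Flox, and Cyb5a, cytochrome b5, at 378 ± 30.8 FPKM in HKO and 501 ± 91.7 FPKM in Flox (SD, n = 3 each). Their adjusted p were 0.661 and 0.651 in limma. Cat and Cyp27a1, 2 of the 17, had every HKO library below every Flox library, against 7.21% of all genes tested.

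Blood and macrophages also hold members of this pathway, and in bulk tissue fewer cells of a type and less RNA per cell cannot be told apart. Alas2, the erythroid form of the first enzyme, stood at 33.4, 51.1 and 41.5 FPKM in HKO and at 53.2, 59.4 and 35.3 FPKM in Flox. Alas1 exceeded Alas2 in 3 of the 6 libraries, HKO 1, HKO 3 and Flox 3. All 6 erythroid markers tested had a lower mean in HKO, also under TPM, and 0 passed, with a median log2 fold change of -0.70. The summed level of the 11 erythroid genes in the table was 138 to 272 FPKM in HKO and 298 to 337 FPKM in Flox, without overlap, while the defining erythroid genes Slc4a1, Epb42 and Hemgn lay under 0.05 FPKM in every library. Hba-a1 stood at 39.9, 80.9 and 62.7 FPKM in HKO and at 116, 96.0 and 106 FPKM in Flox, and its near-identical partner Hba-a2 makes both uncertain. Each of the 12 Kupffer cell markers was higher on average in HKO under every scaling tried, and 0 passed, with a median log2 fold change of 0.69. Their sum was 227 to 370 FPKM in HKO and 151 to 278 FPKM in Flox, with Flox 3 highest among Flox livers. In 4 of the 12, Vsig4, Cd163, Adgre1 and Csf1r, every HKO library lay above every Flox library, against 6.06% of all genes tested. The groups overlapped for the other markers. At an unadjusted p under 0.05 in limma there were 4 of 12, against 7.62% of all genes. Endothelial markers summed to 30.1 to 40.3 FPKM in HKO and 26.5 to 36.7 FPKM in Flox, stellate markers to 34.8 to 51.0 FPKM in HKO and 36.1 to 45.6 FPKM in Flox, and biliary markers to 27.7 to 32.4 FPKM in HKO and 26.0 to 34.4 FPKM in Flox. The part of blood or macrophage RNA in the values of the 9 genes was not tested.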

How the data were processed

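Liver RNA was sequenced in 6 libraries made with a NEBNext Ultra kit that does not mark strand, per the labels' protocols. The authors deposited 1 table of FPKM values with 1 column per library. Per the submitters' processing notes the builds were GRCm38 and mm10. The sources used here name no aligner, counter or annotation release.

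Multiplying FPKM by length gave whole multiples of 1 value per library (100% of values above 0 within 0.02 reads), from which reads were recovered. The library sizes behind the FPKM were proportional to median-ratio size factors, so the values were already scaled between libraries. For a 1 kb transcript, each FPKM is 14.9 to 18.5 reads. Intervals cover only the spread between libraries.

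Testing took genes at 0.5 FPKM or more in 3 or more libraries and used limma 3.58.1 in R 4.3.3 (trend, robust, statmod 1.5.0) on log2(FPKM + 1), two-sided, with Benjamini-Hochberg adjustment over all genes tested and a threshold of 0.05. The script was tested on simulated data. The log scale understates changes of low genes. Exact permutation tests were two-sided. Same-numbered libraries were not treated as pairs. Overlaps came from GENCODE M21, which holds 99.8% of the gene IDs, and blastn 2.17.0 found 0 members with a copy (90% identity or more across 50% or more of the transcript). Promoters are from RefSeq (GRCm38.p6).

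The members and lists were chosen with earlier results of these data known. The named genes are the 9 members, G3bp1, Hmox1, Hmox2, Alas2, Ugt1a1, up to 4 genes per list with the smallest p, and the 3 protein-coding genes, outside predicted ones, most correlated with Alas1 and with Blvrb. Others are said to be chosen after their values were seen. The alternatives were another pseudocount, other filters, TPM, quantile normalization, scaling by assigned reads, limma voom on recovered reads, array weights, a replicate block and each library left out.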

Additional observations from a re-analysis of the deposited data

How the results depend on the processing

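No member passed under any of the 15 alternatives (0 higher and 0 lower in each). Under TPM, where the median of all genes moved to 0.15, the median log2 fold change was -0.017 over the 9 genes and 0.056 over the 7 of synthesis, and Cpox and Ppox turned to 0.056 and 0.090. Ppox was 0.0042 when scaled by assigned reads, and with 1 library left out it ran from -0.15 to 0.0029, the 0.0029 without HKO 3. With 1 library left out, the median over the 9 genes ran from -0.22 to -0.093 and over the 7 from -0.19 to -0.072. Over all genes, 0 were lower under the replicate block and when no filter was used, 2 with a mean of at least 5 FPKM, 3 with limma voom and 3 with array weights. With 1 library left out, 0 to 12 genes were lower and 0 to 1 higher, the 12 and the 1 without HKO 1. The causes were not tested. With the replicate block 0 members passed. Each block holds 1 library of each group, so the block cannot change a log2 fold change, and that of Alas1 was again 0.67 (adjusted p = 0.712 in limma). Same-numbered libraries had correlations of their deviations from the group means of 0.021, 0.015 and 0.070. The best match in Flox was Flox 2 for HKO 1 and Flox 3 for HKO 2 and HKO 3. With 3 libraries a group, such correlations cannot decide whether the numbers pair the samples. The mean filter of 5 FPKM left out Ppox. With 3 libraries a group, an exact two-sided test cannot go below 0.1, and the within-group spread of Alas1, not its reads, limits what can be told of it.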
